A study of Paramacrobiotus metropolitanus with 7 samples.

Results

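The transcripts described here come from the loci of the tardigrade *Paramacrobiotus metropolitanus* whose identifiers run from PARRI_0011896 to PARRI_0012090. All transcripts of the expression matrix with a locus number in this range were taken, and each locus number of the range was present. This gave 206 transcripts, of 26306 in the whole matrix. The range was chosen because many of its transcripts had higher values in males than in females, so every difference between the sexes given for it below is a description of the values that chose it and not a test. Locus numbers give the order of the identifiers only, and scaffold positions and distances between loci were not used here.

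*P. metropolitanus* has separate sexes, and morphological differences between males and females are described for the testis and ovary only. In many animals the testis expresses a large set of genes for meiosis, for packing of DNA into the sperm head and for the sperm tail, and such genes are silent or weak in other tissues. Genes expressed in the same organ may also lie next to each other in a genome, as in tandem arrays of related genes. RefSeq's genes of this species carry other names, and no identifier of the expression matrix could be matched to them. No function is therefore given to any transcript of the range, and the transcripts are described by their level, their place in the order and their behaviour between libraries.

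RNA-Seq libraries were made from whole bodies of adults of the TYO strain, sexed by their reproductive organs after rearing in isolation, with 3 female and 4 male libraries, each from a separate tube of pooled specimens. No treatment or genotype distinguishes the groups other than sex. Expression is given as TPM (a transcript's share of the library corrected for its length), with the authors' TMM factors applied across libraries, and library sums ran from 891117 in male library 2 to 1127677 in male library 1. Read depth cannot be recovered from such values, and ± stands for the SD between tubes of 1 sex, which includes any technical spread. In whole bodies, fewer cells of a type and less RNA per cell cannot be told apart. As a check of the labels, the DMRT ortholog PARRI_0003090 had 0.163 to 1.16 TPM in the female libraries and 15.4 to 73.4 TPM in the male libraries, and the Dsup candidate PARRI_0005796 had 205 to 345 TPM in females and 70.1 to 93.8 TPM in males, so neither gene overlapped between the sexes.

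Most tested transcripts of the range had ordinary levels in males and low levels in females. Their median male mean was 11.6 TPM, the same as over all tested transcripts, and their median female mean was 1.14 TPM against 11.5 TPM. Of the 206 transcripts, 119 were called and over 10-fold higher in males, 37 were called higher in males at up to 10-fold, 7 were called higher in females, 17 had no call, and 26 were not tested because they did not reach 1 TPM in at least 3 of the 7 libraries. A transcript was called when limma, fitted over all 18420 transcripts that passed that filter, gave an FDR below 0.05 on log2(TPM + 0.1), and folds are ratios of group means, each + 0.1 TPM. Over all tested transcripts, 25.3% were called higher in males, 8.09% were called and over 10-fold higher in males, and 23.9% were called higher in females. The corresponding shares of the 180 tested transcripts of the range were 86.7%, 66.1% and 3.89%, and since the range was picked on this contrast, and a transcript could pass the filter through its male values alone, nothing is read from these shares. The median log2 difference (males minus females) was 4.25 in the range, with an interquartile range of 3.00 to 4.91, and 0.50 over all tested transcripts. Every male library lay above every female library in 156 of the 180, beside 28.1% of all tested transcripts. Of the 37 called at up to 10-fold, 35 were among these. The number over 10-fold depended on the pseudocount and the scaling, and it was 54 with a pseudocount of 1 TPM and 59 after quantile normalization.

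**Figure D1:**
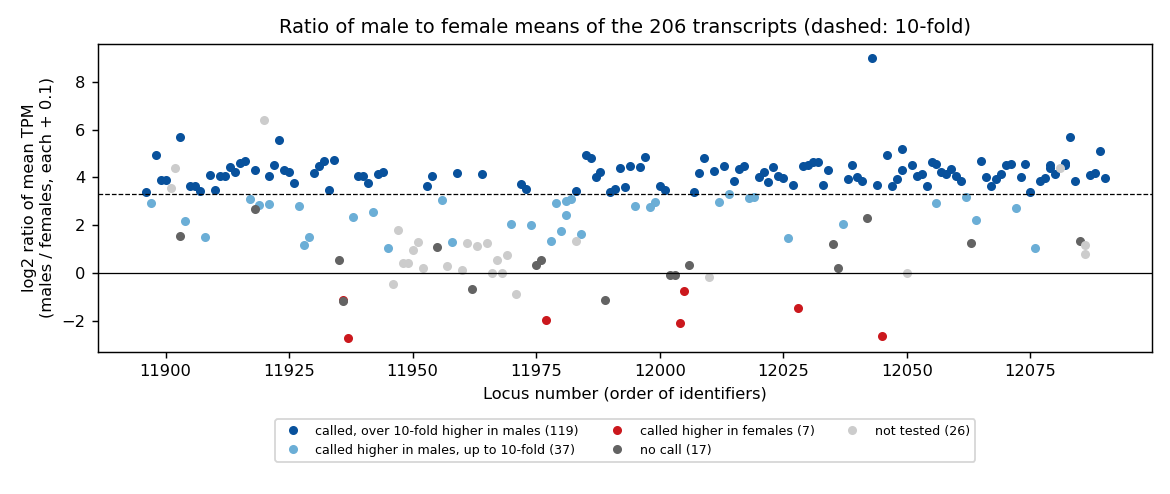
Log2 ratio of the male mean to the female mean (each + 0.1 TPM) of the 206 transcripts, plotted against locus number, with 1 point per transcript coloured by its call. Most points form a band just above the dashed line at 10-fold, a gap in the band holds transcripts that were not tested, and single red points lie below 0. The highest point is PARRI_0012043.t1, which is listed at 0 in females, so its height is set by the pseudocount.

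The summed level of all 206 transcripts was 861, 1675 and 1129 TPM in female libraries 1 to 3, and 9319, 6408, 8897 and 6340.4 TPM in male libraries 1 to 4. The range thus made up between 0.702% and 0.826% of each male library and between 0.0943% and 0.163% of each female library, without overlap. The 119 transcripts over 10-fold accounted for 77.2% to 84.2% of the male sums. In females they accounted for 5.07%, 32.1% and 24.7% of the sums of libraries 1 to 3, so most of the female signal of the range came from other transcripts.

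Levels in males differed widely between transcripts. Among the 119, the mean over male libraries ran from 2.62 to 1190 TPM with a median of 14.4 TPM. It reached 10 TPM in 76 and 100 TPM in 12 of them. The most abundant pair, PARRI_0012039.t1 and PARRI_0012016.t1, held between 22.9% (male library 4) and 32% (male library 3) of the male sums. PARRI_0012039.t1 had 8.68, 91.3 and 55.0 TPM in female libraries 1 to 3 and 1496, 871, 1435 and 959 TPM in male libraries 1 to 4. PARRI_0012016.t1 had 2.36, 108 and 40.7 TPM in the female libraries and 1355, 797, 1414 and 493 TPM in the male libraries. In both, male libraries 1 and 3 were high, male libraries 2 and 4 lower, and the lowest male library stayed above the highest female library. PARRI_0012051.t1 followed with 2.13, 31.6 and 12.1 TPM in females and 387, 338, 353 and 338 TPM in males. Its 4 male values were nearly level, with a coefficient of variation of 6.63%, against 27.0% for PARRI_0012039.t1 and 43.9% for PARRI_0012016.t1.

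The folds of the 119 had an interquartile range of 14.4 to 22.6 around a median of 17.8, with their lower edge set by the threshold of 10-fold. The transcripts nearest the threshold of 10-fold were PARRI_0011896.t1 just inside, with a ratio of 10.4, and PARRI_0012014.t1 just outside, with a ratio of 9.76. At the other end, PARRI_0012043.t1 was the only one of the 119 without any female signal, being listed at 0 in each of the 3 libraries. Its levels in male libraries 1 to 4 were 53.1, 41.8, 68.5 and 40.5 TPM, and no fold is given. PARRI_0011903.t2 had 0.374, 0.041 and 0 TPM in females and 14.5, 9.05, 20.2 and 5.09 TPM in males. PARRI_0012083.t1 was listed at 0 in female libraries 1 and 3, with 0.667 TPM in library 2, and had 19.1, 11.9, 16.9 and 18.2 TPM in males. These transcripts with the largest ratios were of moderate level, as were PARRI_0011923.t1, with a male mean of 61.5 ± 9.53 TPM (n = 4) and a female mean of 1.20 ± 0.796 TPM (n = 3), and PARRI_0012049.t1, with 19.7 ± 3.08 and 0.441 ± 0.764 TPM. The most abundant transcripts did not have the largest ratios, which were 23.0 for PARRI_0012039.t1, 20.1 for PARRI_0012016.t1 and 23.0 for PARRI_0012051.t1.

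**Figure D2:**
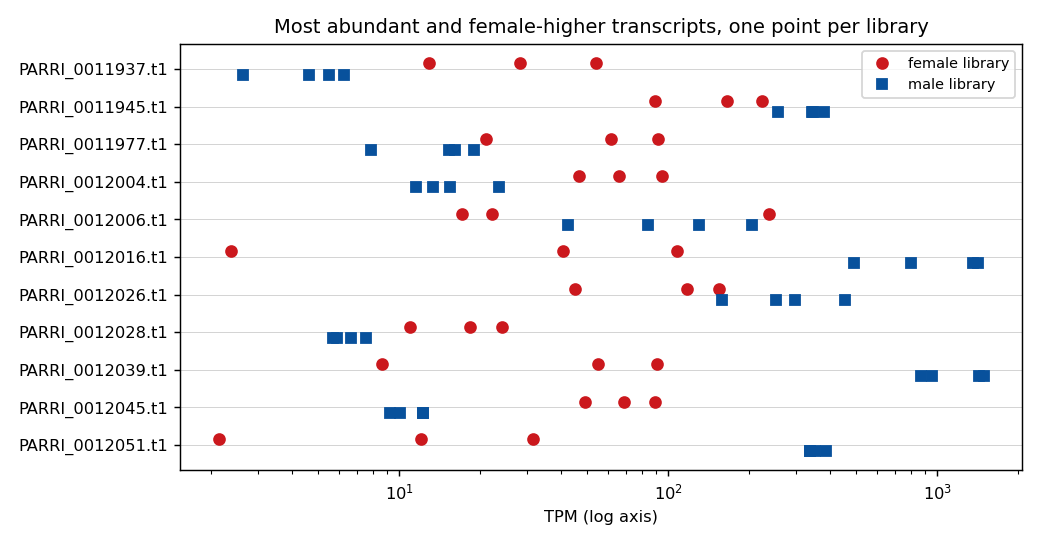
TPM in each library (log axis) of the 5 most abundant transcripts of the range in each sex and the 5 called higher in females with the largest ratio, 11 transcripts in all, with circles for the 3 female and squares for the 4 male libraries. PARRI_0012039.t1, PARRI_0012016.t1 and PARRI_0012051.t1 are separated widely towards males, while PARRI_0012006.t1 overlaps.

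The number of reads behind a TPM value differed widely between transcripts. In the authors' table of mean normalized counts, PARRI_0012051.t1 had a male mean of 8469 counts behind 354 TPM, whereas PARRI_0012016.t1 had 441 counts behind 1015 TPM. The number of counts per TPM grows with the length of the coding sequence, and it was 23.9 and 0.434 for these transcripts, so the TPM of PARRI_0012016.t1 rests on far fewer reads. PARRI_0012043.t1 had 35.3 counts in the male mean, or 0.692 counts per TPM, so few reads lie behind both its male level and its 0 in females. Over the 119, the authors' male mean count had a median of 213 and a lowest value of 11.6, and the authors' female mean count had a median of 11.5. Counts per TPM had a median of 11.9 in the 119, 9.80 in the 37 called at up to 10-fold and 7.96 in the 7 called higher in females, beside 9.45 over all tested transcripts (interquartile range 4.64 to 16.1), and the interquartile range of the 119, 6.04 to 24.6, overlapped it.

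Transcripts higher in males were spread over the whole range and were broken by short gaps. By locus, 116 held a transcript over 10-fold higher in males, 34 others held a transcript called higher in males at up to 10-fold, 7 were called higher in females, 14 had no call and 24 held no tested transcript. The 150 loci called higher in males formed 22 unbroken runs, the longest of 17 loci, which occurred from 11903 to 11919, from 12011 to 12027 and from 12064 to 12080. Runs of 14 loci (11921 to 11934) and 12 loci (11990 to 12001 and 12051 to 12062) came next. With the threshold of 10-fold the longest run was 11 loci, from 12051 to 12061, and it fell to 4 loci after quantile normalization.

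In blocks of 15 locus numbers, the density of strongly male-biased loci was high towards both ends and lowest between loci 11941 and 11985. In the block from 12046 to 12060, 14 of 15 loci were over 10-fold, with a median male mean of 12.2 TPM and a median female mean of 0.796 TPM. PARRI_0012051.t1 was its most abundant transcript. The block from 11911 to 11925 had 12 such loci and was led by PARRI_0011923.t1. The blocks starting at 11986, 12016, 12061 and 12076 had 11 each. Their most abundant transcripts were PARRI_0011997.t1 (50.7 ± 18.7 TPM in males and 1.66 ± 1.4 TPM in females), PARRI_0012016.t1, PARRI_0012074.t1 (226 ± 15.3 and 9.38 ± 8.65 TPM) and PARRI_0012087.t1 (247 ± 45 and 14.2 ± 12.2 TPM). The blocks starting at 12016 and 12031 held the largest summed levels, with 1206 to 2663 TPM and 1154 to 1907 TPM in the male libraries.

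**Figure D3:**
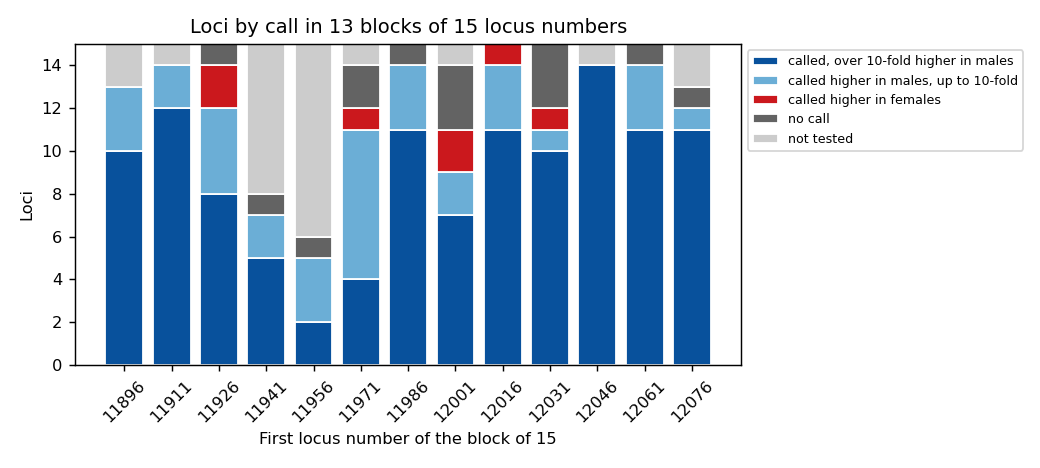
Number of loci in each of 13 blocks of 15 consecutive locus numbers, stacked by call (a locus takes the class of its most male-biased transcript). The block from 12046 has 14 loci over 10-fold, and the block from 11956 has 2, with 9 loci not tested.

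Much of this sparse middle consisted of loci with almost no signal in either sex. From 11946 to 11952, all 7 loci were untested, and no transcript there exceeded 0.732 TPM in any library. A further 5 untested loci ran from 11965 to 11969, and PARRI_0011966.t1 and PARRI_0011968.t1 were listed at 0 in all 7 libraries, as was PARRI_0012050.t1 farther on. In the block from 11956 to 11970, 9 of 15 loci were not tested and 2 were over 10-fold. One of these, PARRI_0011964.t1, stood between silent neighbours at 0.493, 4.47 and 2.88 TPM in the female libraries and 61.4, 36.0, 60.0 and 31.4 TPM in the male libraries, without overlap. Of the 26 untested transcripts of the range, 15 were listed at 0 in all 3 female libraries, and their median male mean was 0.147 TPM.

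Some loci outside the silent stretches were well expressed in both sexes. At 11945, the edge of the silent stretch, PARRI_0011945.t1 had 223, 166 and 89.1 TPM in the female libraries and 380, 346, 342 and 257 TPM in the male libraries, the highest female mean of the range at 159 ± 67.0 TPM (n = 3). It was 2.08-fold higher in males with no overlap, but the call was lost after quantile normalization and when any library other than female library 1 or male library 4 was left out. PARRI_0012026.t1, inside a male-biased run, had 155, 117 and 45.1 TPM in females and 453, 297, 252 and 158 TPM in males, so that the lowest male library was just above the highest female library, and it lost its call under the same settings. From 11974 to 11982, 9 consecutive loci had no transcript over 10-fold, the longest such gap, but most of them were called higher in males at up to 10-fold. Levels there were mixed, with female means from 0.134 TPM for PARRI_0011981.t2 to 58.0 TPM for PARRI_0011977.t1. From 12002 to 12006 none of 5 loci was called higher in males. In that last gap PARRI_0012002.t1 had 40.0, 57.9 and 71.6 TPM in females and 54.2, 56.3, 49.5 and 52.1 TPM in males. The sexes overlapped, and the 4 male values had the lowest coefficient of variation among transcripts of the range whose male mean reached 10 TPM, 5.51%. PARRI_0012006.t1 also had no call, with 22.2, 236 and 17.2 TPM in females and 83.9, 130, 42.5 and 206 TPM in males. The highest value of all was in female library 2, without which PARRI_0012006.t1 was called higher in males. Few reads lie behind these levels, with authors' mean counts of 40.9 in females and 63.7 in males, or 0.551 counts per TPM in males.

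The 7 transcripts called higher in females were scattered as 5 short islands. They lay at loci 11936 and 11937, 11977, 12004 and 12005, 12028 and 12045. In all 7 every female library was above every male library, and among the other tested transcripts of the range this held for 2, both without a call. Over all tested transcripts, called or not, it held for 25.9%. PARRI_0011937.t1 had 12.9, 28.0 and 53.8 TPM in female libraries 1 to 3 and 6.26, 4.62, 5.48 and 2.63 TPM in male libraries 1 to 4, a ratio of 6.54 (females over males). PARRI_0012045.t1 had 49.3, 68.6 and 89.1 TPM in females and 9.29, 12.2, 10.1 and 12.3 TPM in males, a ratio of 6.24. It stands between PARRI_0012044.t1 and PARRI_0012046.t1, which were over 10-fold in the opposite direction. PARRI_0012004.t1 had 46.6, 65.6 and 94.6 TPM in females and 13.4, 11.6, 15.5 and 23.5 TPM in males, and PARRI_0012028.t1 had 11.0, 18.3 and 24.2 TPM and 5.70, 6.61, 5.87 and 7.54 TPM. For PARRI_0011977.t1 the margin was small, with 21.0 TPM in female library 1 and 19.0 TPM in male library 3, although female libraries 2 and 3 had 61.2 and 92.0 TPM, and the call was lost without either of these libraries. In 5 of these named transcripts, female library 1 was lowest and female library 3 highest. The number of calls fell to 4 without female library 2. In males the 7 transcripts had means of 4.75 to 18.0 TPM, so they were lower but not silent.

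The borders of the range did not coincide with the end of male-biased expression. The first locus, PARRI_0011896.t1, had 0.137, 0.903 and 0.260 TPM in females and 4.50, 6.40, 4.71 and 6.13 TPM in males. Its neighbour just outside, PARRI_0011895.t1, had 0, 0 and 1.3 TPM and 12.0, 9.87, 11.1 and 9.63 TPM. At the other end, PARRI_0012090.t1 had 0.465, 2.82 and 0.955 TPM in females and 27.4, 20.7, 25.8 and 21.7 TPM in males, and PARRI_0012091.t1, just outside, had 0.219, 3.70 and 1.69 TPM and 50.9, 35.0, 48.0 and 44.3 TPM. All 4 transcripts were over 10-fold higher in males. Beyond them the density varied. Of the 15 tested transcripts in the block of 15 loci ending at PARRI_0011895, 3 were over 10-fold, and 3 were called higher in males in all. In the adjoining block on the other side, starting at PARRI_0012091, all 8 tested transcripts were called higher in males and 3 were over 10-fold, and in the next block, starting at locus 12106, 4 of 12 were called higher in males and 0 were over 10-fold. Dense blocks recurred farther out, with 6 of 10 tested transcripts over 10-fold from locus 11806, 8 of 11 from locus 11821 and 10 of 16 from locus 12271. In a stretch of the same length before the range, 36 of 143 tested transcripts were over 10-fold, or 25.2%, and in one after it 25 of 187, or 13.4%, where 23.0% were called higher in females. Other ranges picked for the same pattern had shares of 77.7% of 103 tested transcripts (PARRI_0008551 to PARRI_0008655) and 85.5% of 62 (PARRI_0012286 to PARRI_0012345). Their summed levels in the male libraries were 2531 to 3506 TPM and 2636 to 3888 TPM.

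In females, the remaining signal of the male-biased transcripts differed by library. Expressed as a percentage of each transcript's male mean, the level of the 119 had a median of 0.603% in female library 1 (interquartile range 0 to 1.22%), 9.0% in female library 2 (6.73% to 11.4%) and 4.01% in female library 3 (2.37% to 5.70%). Female library 1 was lowest in 103 of the 119 and female library 2 highest in 98, and the order female library 2, 3, 1 occurred in 82 of them. The same order of medians was seen in the 1372 transcripts over 10-fold outside the range, with 0, 6.16% and 2.72%. Female library 1 was lowest in 79.7% of these and in 55.2% of all tested transcripts, and female library 2 highest in 56.6% and 32.2%. The order female library 2, 3, 1 occurred in 38.9% and 18.4%, against 68.9% of the 119. Ties, as where all 3 females are at 0, count for the library with the lower number. In 39 of the 119, female library 1 was listed at 0. The presence of male RNA in the female tubes was not tested. With female library 1 left out, 102 transcripts of the range were over 10-fold, and 129 with female library 2 left out. Among the 61 tested transcripts that were not over 10-fold, the medians were 36.3%, 29.9% and 22.4% in female libraries 1 to 3, although female library 1 was still the lowest of the 3 in 35 of them.

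**Figure D4:**
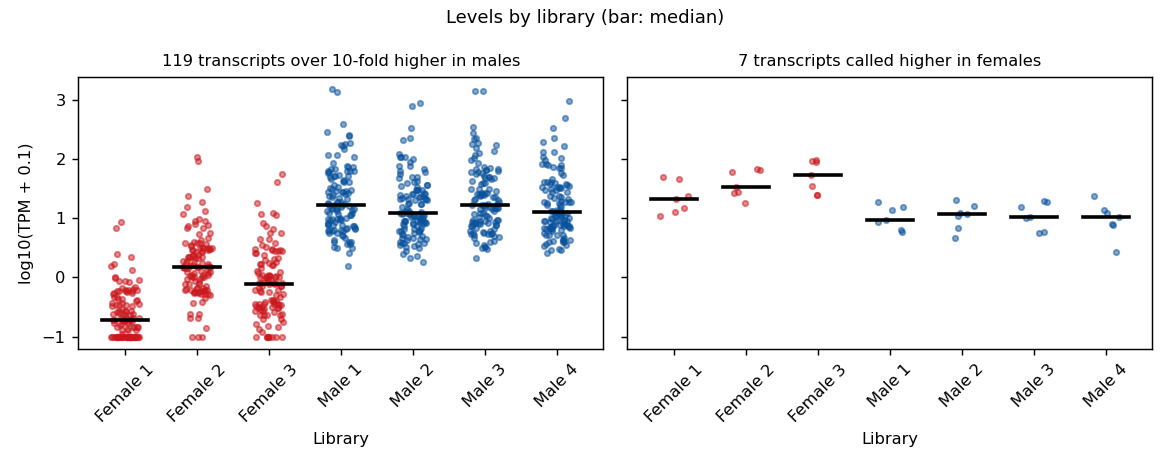
Level of each transcript, as log10(TPM + 0.1), in the 3 female and 4 male libraries, for the 119 transcripts over 10-fold higher in males (left) and the 7 called higher in females (right), with the median as a bar. On the left the median is 0.0910 TPM in female library 1, 1.42 in 2 and 0.662 in 3, and between 11.9 and 16.9 TPM in the male libraries.

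The male libraries gave similar levels for the 119 transcripts. Across these transcripts, which share the libraries and are not independent, Pearson's r of log2(TPM + 0.1) was between 0.963 and 0.991 for pairs of male libraries, beside 0.816 to 0.906 over all 18420 tested transcripts and 0.653 to 0.877 over the 1372 transcripts over 10-fold elsewhere. The SD of the log2 difference between male libraries 1 and 3 was 0.246 in the 119 and 1.05 over all tested transcripts. Between male libraries 3 and 4, the most different pair, it was 0.500 and 1.43. For the 61 other tested transcripts of the range the SD for these pairs was 0.800 and 1.27. The 119 had passed a call that favours small spread within a sex, so a smaller SD than in these sets is partly set by the choice. Over the 1372 elsewhere, chosen by the same call and fold, the SD for these pairs was 1.09 and 1.81. The coefficient of variation over male libraries had a median of 21.4% in the tested transcripts of the range and 29.5% over all tested transcripts. It was 36.2% in the stretch of the same length before the range and 25.3% in the one after it. In the other ranges picked for this pattern it was 25.1% (PARRI_0008551 to PARRI_0008655) and 22.2% (PARRI_0012286 to PARRI_0012345). Restricted to a male mean of at least 10 TPM, r was 0.943 to 0.992 over 76 transcripts of the range and 0.498 to 0.877 over 780 transcripts over 10-fold elsewhere. For the 43 of the range with a lower mean it was 0.728 to 0.865, and for 592 elsewhere 0.193 to 0.378. The SD of the log2 difference between male libraries 1 and 3 was 0.192 in the 76 and 0.323 in the 43. Between male libraries 3 and 4 it was 0.511 and 0.383, so neither set was closer throughout. No test of these differences was made.

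What variation there was among males followed a common pattern, which was noticed after the values had been seen. Male library 1 was highest in 53 and male library 3 in 42 of the 119, whereas male library 2 was lowest in 74 and male library 4 in 28. In 74 of the 119 both male libraries 1 and 3 lay above both of 2 and 4, or 62.2%, beside 59.9% of the 1372 transcripts over 10-fold elsewhere and 23.3% of all tested transcripts. The median log2 ratio of male libraries 1 and 3 to 2 and 4 was 0.38 in the 119, 0.54 in those elsewhere and -0.03 over all tested transcripts. Male libraries 1 and 3 also had the larger sums over all transcripts (1127677 and 1084282, against 891117 and 903763). They lay below both of 2 and 4 in 5 of the 119. With every library brought to the same sum this rose to 25, and the count above fell to 47. The median ratio fell to 0.08, and that of all tested transcripts to -0.32, a distance of 0.40 as before. Scaling each library by a single factor moves both medians nearly alike. The distance could therefore hardly change with equal sums or with median-of-ratios scaling, where it was also 0.40. Quantile normalization could change it, and the distance was 0.40 there too. In the 61 other tested transcripts of the range, 17 had this pattern.

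Without quantile normalization, the size of the pattern was related to level in the range, as it was elsewhere. Of the 76 transcripts over 10-fold whose male mean reached 10 TPM, 57 had male libraries 1 and 3 above 2 and 4, with a median log2 ratio of 0.52. Among the 43 with a lower mean, 17 had it, with a median of 0.20. Spearman's rho between the log2 ratio and the male mean was 0.421 across the 119 transcripts, a description over transcripts that share the same 4 libraries. It was 0.378 over the 1372 over 10-fold elsewhere and 0.238 over all tested transcripts. In the 119 it was 0.406 with equal library sums and 0.425 with median-of-ratios scaling, which hardly change the order of transcripts. After quantile normalization, which can change that order, it was -0.03. Without that normalization rho was 0.213 within the 76 and -0.01 within the 43. Abundant transcripts differed in whether they showed the pattern. PARRI_0012051.t1 and PARRI_0012074.t1, the latter at 246, 212, 218 and 230 TPM in male libraries 1 to 4, were flat. PARRI_0011985.t1, at 178, 99.2, 181 and 105 TPM, and PARRI_0011934.t1, at 118, 87.9, 128 and 73.1 TPM, showed it clearly. The male library with the highest value was shared by 29.6% of 81 adjacent pairs of loci over 10-fold and by 33.6% of 6555 other pairs.

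**Figure D5:**
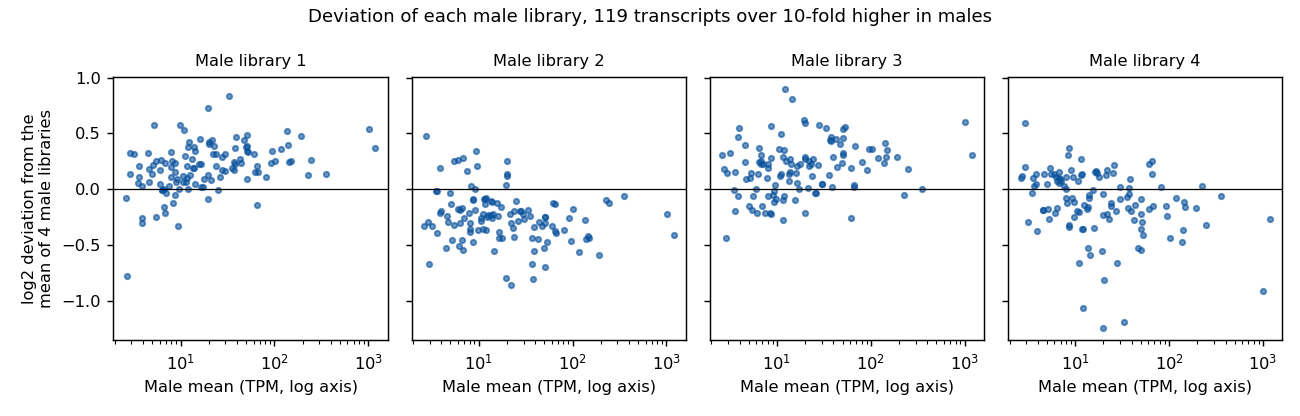
Log2 deviation of each male library from a transcript's mean over the 4 male libraries, against the male mean in TPM (log axis), for the 119 transcripts over 10-fold higher in males. Most points lie above 0 for male libraries 1 and 3 and below 0 for male library 2, and male library 4 is close to 0 for weak transcripts and lower for stronger ones.

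The transcripts that varied most among males, at a male mean of at least 10 TPM, were all outside the group over 10-fold. That group needs a call, which a wide spread among males makes less likely, so this is partly set by the choice. PARRI_0011976.t1 had 12.5, 19.4, 0.651 and 10.6 TPM in male libraries 1 to 4 (coefficient of variation 71.7%), PARRI_0012042.t1 had 31.4, 18.6, 12.7 and 5.85 TPM (63.3%), and PARRI_0012056.t2 had 6.87, 11.1, 19.9 and 5.12 TPM (61.3%). Each was highest in a different male library. The authors' male mean counts were 77.7 for PARRI_0011976.t1, 16.9 for PARRI_0012042.t1 and 18.8 for PARRI_0012056.t2. Few reads thus lie behind the spread, above all in the last pair. PARRI_0011976.t1 and PARRI_0012042.t1 had no call, but PARRI_0012042.t1 gained one with a pseudocount of 1 TPM, with the replicate block and without female library 1. PARRI_0012056.t2 was called higher in males, and lost the call after quantile normalization and without male library 3. At the other extreme PARRI_0011919.t1 had 19.7, 19.6, 18.5 and 21.2 TPM in males (5.59%), while 2 of its female values were 0 and female library 2 had 7.91 TPM. The authors' mean count was 4.02 in females and 32.5 in males, so its even male values also rest on few reads. PARRI_0011919.t1 was called higher in males, but not without female library 3.

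At 11 loci the matrix holds 2 transcripts, and at 6 of them the transcripts fell into different classes. How reads common to both were assigned in the authors' counting can change such differences, which are uncertain. At locus 11903, PARRI_0011903.t2 was over 10-fold, as given above, while PARRI_0011903.t1 had 0, 1.74 and 1.02 TPM in females and 2.29, 2.68, 1.65 and 5.09 TPM in males, which overlapped. At locus 12056, PARRI_0012056.t1 had 62.3, 39.8, 61.6 and 38.4 TPM in males and 0.128, 3.06 and 2.90 TPM in females, and its partner PARRI_0012056.t2 was 7.54-fold higher in males with a different order of male libraries. At locus 11936, PARRI_0011936.t2 was called higher in females (22.2 ± 6.26 TPM, n = 3, against 10 ± 0.959 TPM, n = 4), and PARRI_0011936.t1 differed in the same direction without a call (7.13 ± 2.86 and 3.08 ± 1.65 TPM). At loci 11918 and 11983 the weaker transcript had no call or was not tested, and at locus 11921 the ratios were 16.8 for PARRI_0011921.t1 and 7.43 for PARRI_0011921.t2. Calls at these loci changed with single settings. PARRI_0011936.t2 lost its call without female library 2 or male library 1, PARRI_0011921.t2 after quantile normalization and with the replicate block, and PARRI_0011983.t2 after quantile normalization. PARRI_0011903.t1 gained a call without female library 2, PARRI_0011918.t1 without male library 4 and with the replicate block, and PARRI_0011936.t1 after quantile normalization.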

How the data were processed

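RNA-Seq libraries of 3 female and 4 male tubes were compared, with sex and replicate number taken from the sample labels. The authors mapped reads to coding sequences and quantified them with RSEM 1.3.3. The deposited matrix holds TPM after TMM rescaling, a signal that is neither a count nor a share of fixed total. The authors' comparison with DESeq2 1.38.0 was deposited with the mean normalized count of each sex, also a signal, which served here only to show how many reads lie behind a TPM. Its log2 fold changes, standard errors and p-values were not used. The study tested counts, which these files do not give per library, so log values were tested instead.

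For each transcript reaching 1 TPM in at least 3 of the 7 libraries, log2(TPM + 0.1) was modelled by sex in limma 3.58.1 (R 4.3.3), using a trended prior, and called at a Benjamini-Hochberg FDR below 0.05. The scripts were tested on simulated data. Summaries were made in Python 3.11.15 with pandas 2.3.3, NumPy 2.4.6 and matplotlib 3.10.9. The range, the blocks and the rule for naming transcripts were chosen with earlier results of these data known. The rule took the 5 highest by male and by female mean, the 5 largest ratios in each direction (for males without overlap and with a mean over males of 10 TPM or more), the 3 most and 3 least variable among males at that level, the highest of each block, the border loci with their neighbours outside, loci whose transcripts differ in call, and genes named by the study. Other transcripts, such as PARRI_0012014.t1, PARRI_0012044.t1, PARRI_0012046.t1 and those at 0 in every library, and the comparison of male libraries 1 and 3 with 2 and 4, were picked after their values were seen. Alternatives covered the pseudocount, the filter, the scaling, the prior, the fold threshold, a term for replicate number and the omission of single libraries.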

Additional observations from a re-analysis of the deposited data

Results flagged for a closer look

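The 4 male values were examined for 192 transcripts or sums, so not for all 206 transcripts of the range. In 4 of these a single library lay far from the rest. That is fewer than the about 1 in 20 that chance alone gives for normally distributed values, which values mostly at 0 are not. Transcripts such as PARRI_0011951.t1, at 0.587 TPM in male library 4 and 0 elsewhere, are not counted. PARRI_0011920.t1 was listed at 0 in every library except male library 4, which had 33.1 TPM. The gap to the nearest other value was therefore the whole range (1 of 1), and the authors' male mean count was 0.839. PARRI_0011901.t1 had 4.27 TPM in male library 2 and was listed at 0 elsewhere, again a gap of 1, with a male mean count of 0.188. PARRI_0011961.t1 reached 7.40 TPM in male library 4 while the other male libraries had 0.481 to 0.756 TPM, a gap of 0.9603 of the range, with a male mean count of 18.9. These 3 transcripts did not pass the filter. PARRI_0011993.t1, over 10-fold higher in males, was lowest in male library 2 with 8.89 TPM while the others had 11.1 to 11.6 TPM, a gap of 0.8291 of the range.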

How the results depend on the processing

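Between 105 and 158 transcripts of the range were called higher in males under the alternatives tried, the fewest when a mean of 5 TPM was required and only 121 were tested. With a pseudocount of 1 TPM, 54 were over 10-fold and the median log2 difference was 2.65. After quantile normalization these were 59 and 2.85, the loci over 10-fold numbered 56, their longest run was 4, and 1 block had most of its loci over 10-fold, against 9 otherwise. At a threshold of 25-fold there were 18 such loci, a longest run of 2 and 0 such blocks. Leaving out single libraries gave 145 to 157 calls higher in males, 4 to 7 higher in females (4 without female library 2) and 102 to 129 over 10-fold. The library with the highest value among tested transcripts also shifted. With equal library sums, male libraries 1 and 3 lay above 2 and 4 in 47 of the 119 and below them in 25. Under that scaling the highest library was male library 1 in 31, male library 2 in 32 and male library 4 in 62 (69, 21 and 31 otherwise). With the mean of 5 TPM it was male library 2 in 11, male library 4 in 19, female library 1 in 12 and female library 3 in 22. Without a filter it was female library 1 in 39, and after quantile normalization female library 2 in 80 and female library 3 in 74. The labels do not say whether same-numbered tubes of the 2 sexes belong together. Deviations of same-numbered libraries correlated at -0.01, 0.03 and 0.25, and those of other pairs at -0.255 to 0.259, which cannot decide it. With the replicate block 151 were called higher in males and 6 in females. The log2 difference of PARRI_0011976.t1, which had no call, was -0.031 with median-of-ratios scaling, -0.26 after quantile normalization, -0.14 with the replicate block and -0.43 to 1.132 without single libraries. That of PARRI_0012002.t1 was 0.36 after quantile normalization and -0.28 to 0.14 without single libraries. Among 39 named transcripts of the range, 22 of 614 values lost a call and 8 gained one. The transcripts concerned are given with their values above, and the cause was not tested. TPM values do not carry the read depth of a library, so no counting error can be given for a single value.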
